A study of Schizosaccharomyces pombe with 56 samples.

Results

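Among the 2192 regions compared by H3K9me2 ChIP-seq between fission yeast cells growing with nitrogen (0 h) and the same strain after 24 h without it, 497 stood above the lowest 0 h value of the table and were higher at 24 h by at least 1 on the log2 scale. They were chosen by their values: a 0 h mean of 0.80 normalised reads or more, a 24 h mean at least 1 log2 unit above it, whatever the p, and a width of 10000 bp or less. These regions are called gaining regions here. Their levels, differences and FDR therefore describe the choice and are given without a test. The rule did not use their position, genes or sequence. It used reads per region and a width limit, so traits that go with width, such as gene length, are not independent of it. For comparison, 1024 regions at the 0 h minimum gained by as much, 428 regions above the minimum changed by less than 1 in either direction, and 102 were lower by 1 or more.

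Dimethylation of histone H3 at lysine 9 (H3K9me2) is written in fission yeast, Schizosaccharomyces pombe, by a single methyltransferase, Clr4, and is read by chromodomain proteins that keep chromatin silent. It is best known from heterochromatin, the silent chromatin of centromeres, telomeres and the mating-type locus, where small RNAs bound to Argonaute help to place it, and from small islands over meiotic genes. Fission yeast deprived of nitrogen stops dividing and enters quiescence, a state in which it stays alive without growth.

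Both groups were wild type, strain 975 h+ (h+ being its mating type), grown in EMM minimal medium with adenine, histidine, leucine, lysine and uracil. The 0 h group, labelled as control, was taken before nitrogen was removed, and the 24 h group after 24 h in the same medium without nitrogen. The labels list 6 H3K9me2 libraries at each time, and the name of the deposited workbook gives the digits 1, 3, 4, 5 and 6, so 5 libraries per group were assumed. The table holds 1 mean per group and region, and neither depth nor spread per library. The labels do not say whether libraries of a group came from separate cultures. For H3K9me2 the labels list 4 wild-type input libraries at 0 h and 4 at 24 h, and none for replicates 3 and 4. The input, 1 h, clr4D, ago1D and H3K9me3 libraries of the 56 in the series were not analysed here.

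Most of the bases under the gaining regions were coding. The sequences below show 3 genes whose regions ended close to a coding end. They were picked for that closeness and are not typical, since the median region began 274 bp after the coding start. Each of the following runs holds the first or the last 60 coding bases of a gene whose region ended within them, read 5′ to 3′ on the coding strand, with the bases inside the region in capitals. The sequences are RefSeq's, of build ASM294v3, and all 3 genes lie on the minus strand of chromosome I: csx1, for an RNA-binding protein of the oxidative stress response, at chrI:3572286-3572345 (start) and chrI:3570447-3570506 (end), and the fatty acid synthase genes fas1 at chrI:3906529-3906588 and fas2 at chrI:2567040-2567099.
csx1 start: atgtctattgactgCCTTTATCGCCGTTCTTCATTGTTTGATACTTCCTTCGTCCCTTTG
csx1 end: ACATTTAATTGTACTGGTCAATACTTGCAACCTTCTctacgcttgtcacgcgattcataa
fas1 start: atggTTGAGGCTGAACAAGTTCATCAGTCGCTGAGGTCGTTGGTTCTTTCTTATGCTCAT
fas2 end: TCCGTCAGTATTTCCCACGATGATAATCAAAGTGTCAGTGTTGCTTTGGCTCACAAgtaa
The csx1 region left out 14 coding bases at the start and 24 at the end, the fas1 region 4 at the start and 105 at the end, and the fas2 region 184 at the start and 4 at the end, the latter being the stop codon and the base before it.

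Across the gaining regions the coding share was high, but a region often stopped short of a coding end or ran past it. Of the 496 on the 3 chromosomes, 272 (54.8%) consisted of coding bases throughout and 422 (85.1%) were over 90% coding, in a genome of which 56.9% is coding. Their median coding share was 100%. Regions that gained from the 0 h minimum were wholly coding in 36.0% and over 90% coding in 58.9%. Regions above the minimum that changed by less than 1 were wholly coding in 63.8%, so wholly coding regions made up more of both classes above the 0 h minimum. Regions are not replicates and share their libraries, so these shares are descriptions of the table.

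Of the 495 gaining regions with a main gene, the protein-coding gene they overlap most, 455 began inside its coding sequence, 334 ended inside it and 317 did both. The median region began 274 bp after the coding start, ended 46 bp before the coding end and covered 84.4% of the coding length. Only 10 of 496 (2.02%) covered an annotated gene start, against 85 (8.33%) of the regions gaining from the 0 h minimum. The 3′ side differed most between those classes. Of the gaining regions above the minimum, 160 (32.3%) ran past the coding end and 57 (11.5%) ran at least 250 bp past it, whereas 529 (52.4%) and 362 (35.9%) of the regions gaining from the minimum did. The regions of little change resembled the former, with 24.8% and 8.18%.

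**Figure D1:**
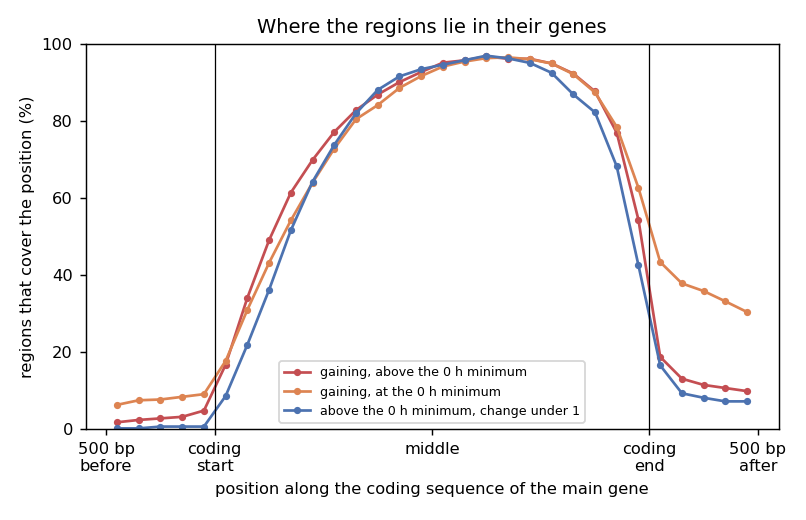
Share of regions (percent, y axis) that cover each position along the coding sequence of their main gene (x axis, 20 equal parts from coding start to coding end, and 500 bp on either side), for the 3 classes of regions. In all classes coverage peaks at over 95% in the later part of the coding sequence; beyond the coding end it drops to 18.8% for the gaining regions above the 0 h minimum and to 43.4% for those at the minimum.

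The gaining regions overlapped 565 protein-coding genes, 11.1% of the 5113 annotated, and 426 of them lay over 1 gene and 70 over 2. These genes were long. Their median coding length was 1764 bp, against 1380 bp for genes under regions gaining from the 0 h minimum, 1797 bp for genes under regions of little change and 1137 bp for all genes. Coding sequences over 3000 bp made up 17.7% of them and 7.18% of all genes. The share of genes under a gaining region went from 2.09% at 500 bp or less to 34.2% (55 of 161) above 4000 bp. Genes under regions of little change were as long, with 15.9% over 3000 bp. The levels are reads per region, not per kb, and the width of the gaining regions had a Spearman correlation of 0.867 with coding length. The part of coding length in the choice of regions was not tested. Only bet4 lay under 2 gaining regions.

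**Figure D2:**
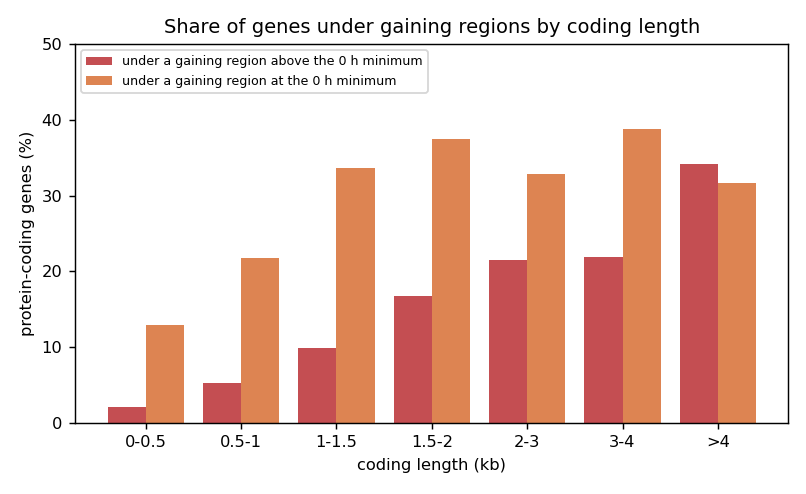
Share of protein-coding genes (percent, y axis) under gaining regions, by coding length in kb (x axis). The share under gaining regions above the 0 h minimum is lowest, 2.09%, for the shortest genes and highest, 34.2%, for the longest, while the share under those at the minimum is 12.9% and 31.7%.

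Other features set the genes less apart. The median GC content of their coding sequences was 41.1%, against 39.6% for all genes. The word TTAAAC, the core of the element bound by the RNA elimination factor Mmi1 (searched on the coding strand in coding sequences), occurred 0.311 times per kb, against 0.338 in all genes. In the 250 bases before the annotated gene start, searched on both strands, TTAAAC was found for 29.0% of the genes and 28.6% of all genes, and GATAAG, the GATA factor motif, for 12.2% and 10.2%. The ribosomal protein gene motif HomolE (ACCCTACCC) was found for 0.708% and 1.27%. The motifs can overlap each other, and a match is a description only.

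Chromosome I held 205 of the regions (36.7 per Mb), chromosome II 190 (41.9 per Mb) and chromosome III 101 (41.2 per Mb). Within 10 kb of a region wider than 10 kb, the size of the heterochromatin domains, lay 8 of them (1.61%, against 1.38% of all regions). None overlapped a tRNA gene, and 1 overlapped a Tf2 retrotransposon (Tf2-7). An annotated long non-coding RNA was overlapped by 377 of 497, beside 770 of 1024 regions gaining from the minimum and 323 of 428 regions of little change. These shares were nearly the same. The 1 gaining region off the chromosomes lay on a separate contig, at 8833 to 9381, with authors' means of 1.71 and 12.3 normalised reads.

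The levels themselves were low at 0 h. In the authors' deposited table the median of the 497 regions was 5.29 normalised reads at 0 h, with a range of 0.898 to 76.6, and 26.0 at 24 h, with a range of 3.17 to 330 (gsf2). Per kb of region, the median level was 3.72 normalised reads at 0 h and 16.5 at 24 h. Regions gaining from the minimum had 9.84 per kb at 24 h, and those of little change had 9.58 and 10.7. The log2 difference had a median of 2.00 and ranged up to 6.32. Of the 497, 331 had a p below 1 in the authors' deposited table, and 53 of these had an FDR under 0.05, beside 453 of 1385 regions (32.7%) higher at 24 h over the whole table and 10 (0.722%) lower. Since the same comparison chose the regions, nothing is read from that share.

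**Figure D3:**
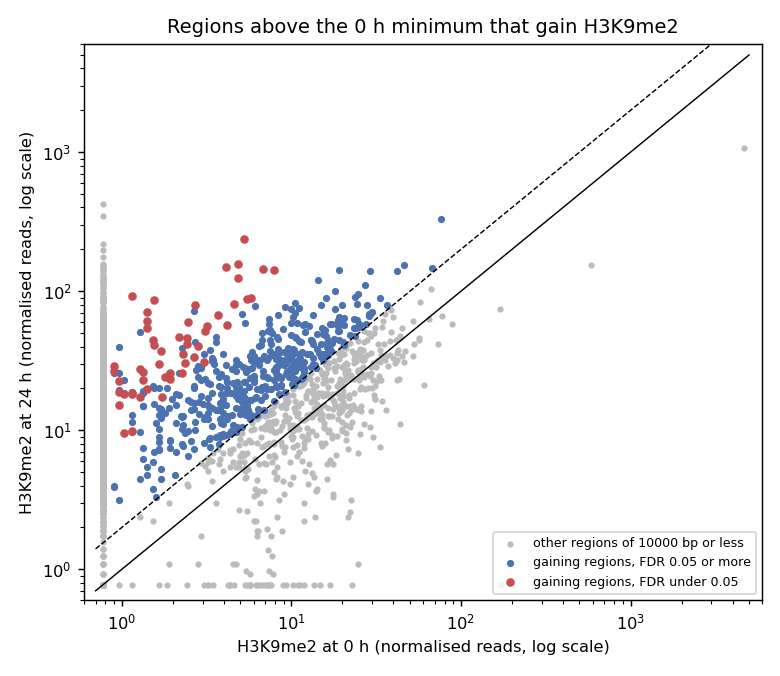
Authors' mean H3K9me2 at 0 h (x axis) and at 24 h (y axis), in normalised reads on log scales, for every region of 10000 bp or less. The solid line marks equal values and the dashed line a log2 difference of 1. The 497 gaining regions lie on or above the dashed line, and the 53 with an FDR under 0.05 lie at 0 h means of 7.86 or less.

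Whether these regions were marked before starvation rests on few reads for many of them. The group means could be split into whole reads per library for all 497 regions. Under this recovery, 2 of the 5 assumed libraries held signal at 0 h and 3 at 24 h, and the others stood at their minimum. The libraries carry no replicate number, so they are called by time and number only. The reads above the minimum at 0 h had a median of 31 per region, but 12 regions had 1 read, 35 had at most 3 and 108 had at most 10. In 323 regions the 0 h signal came from 1 library alone and in 174 from both. A stricter 0 h level of 3 counts per library, 2.31 normalised reads, was reached by 394. Among the 53 regions with an FDR under 0.05 the 0 h reads were fewer, with a median of 8 and a maximum of 53, 13 of them had at most 3, and 46 had 0 h signal in 1 library only. In the regions with the fewest reads, a mark before starvation cannot be told apart from a few stray reads, so all 497 are called by the rule that chose them.

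The limits cut through a continuous range of values. The smallest log2 differences inside were those of ape2 (1.00), pat1 (1.00) and tea4 (1.01), and the largest outside those of aro2, alp14 and rad2, each just under 1. At the 0 h limit, etp1, cop1 and ams2 were among 5 regions at 0.898 normalised reads, 1 read of 0 h library 1 above the minimum of 0.77. Of the regions at that minimum, those with the highest 24 h means covered pfl2 and its neighbours (425), lay near yox1 (347) and covered tef3 (220). The widest regions inside were those of ptr1 (9327 bp), spo2 with vps1302 (8987 bp) and utp20 with SPOM_SPBC56F2.05C (8668 bp), and the width limit left out 1 region of 13412 bp at the end of chromosome III.

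At 24 h most of the signal came from a single library. Of the recovered normalised reads in the 497 regions, 24 h library 1 held 71.2%, library 2 held 21.7% and library 3 held 7.10%. Library 1 held 73.1% in the regions gaining from the minimum and 80.5% in those of little change. It was the highest 24 h library in 455 of the gaining regions. With library 1 left out and the other 4 averaged, 261 of 497 were still higher at 24 h, 156 of them by 1 or more, and the median log2 difference was 0.17. Without 24 h library 2 the counts were 494 and 452, and without library 3 they were 496 and 494. All 53 regions with an FDR under 0.05 stayed higher by 1 or more without library 1, with a median log2 difference of 3.25, although the same libraries gave them their FDR.

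**Figure D4:**
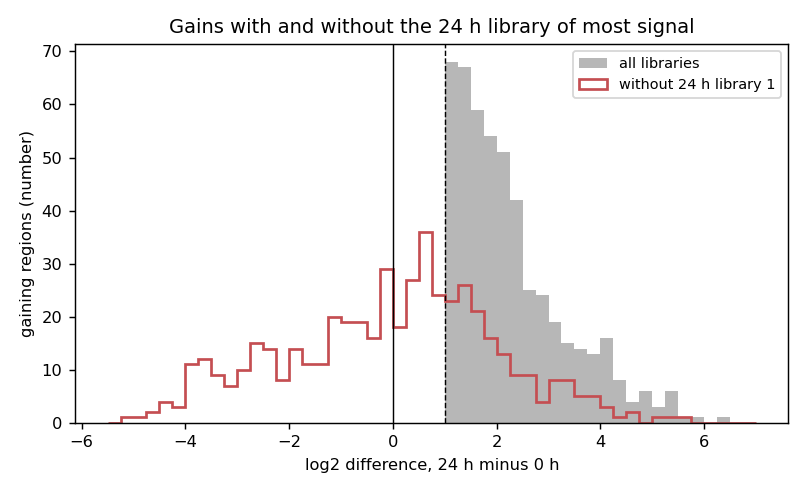
Number of gaining regions (y axis) by log2 difference of 24 h minus 0 h (x axis), with all libraries (grey) and without 24 h library 1 (red outline). The solid and dashed lines mark 0 and the limit of 1; all 497 lie above 1 with all libraries, and 156 do without that library.

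Signal at 24 h was found in 1 library for 153 regions, in 2 for 206 and in 3 for 138. Of the regions with an FDR under 0.05, 0, 21 and 32 fell in these groups, and of the 166 listed with a p of 1, 139, 24 and 3 did. In 239 of the 497 regions (48.1%) at least the 2 highest 24 h libraries exceeded every 0 h library, as they did in 735 of all 2174 resolved regions (33.8%). All 3 libraries with signal did in 45 (9.05%, against 6.81% of all). Limma on the recovered values, with libraries without signal set to 0, called 0 of the 2174 resolved regions (0.00%) with the adjusted p held under 0.05. Before adjustment 73 regions had a p under 0.05, 3 of them among the 497. Libraries set to 0 in both groups widened the spread within each group, so nothing is read from the lack of calls.

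The 25 regions with the lowest FDR covered genes of varied function, and csx1 came first. The csx1 region (chromosome I, 3570471 to 3572331) had values of 1.92 and 0 normalised reads in the 0 h libraries and 241, 137 and 79.6 in the 24 h libraries. Every 24 h library with signal was far above both 0 h libraries. Its means in the authors' deposited table were 1.15 and 92.3, an 80.0-fold ratio with an FDR of 0.000806. With 3 reads at 0 h the 95% interval of that ratio was 48.8 to 109, from the counting error of the 0 h reads alone. It leaves out the spread of the 24 h libraries and the choice of this region by its rank, so nothing is read from it. The 0 h mean includes the table's minimum of 0.77 normalised reads, which was held fixed, so the minimum limits both the ratio and the width of its interval.

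Several of the 25 regions, and that of fas2, covered enzyme genes. For glt1, glutamate synthase of nitrogen assimilation, whose region (chromosome I, 3303699 to 3312011) also covers its neighbour SPOM_SPAPB1E7.08C, the recovered values were 22.4 and 0 at 0 h and 669, 408 and 99.7 at 24 h. The 24 h values lay above both 0 h values, and the means of 5.25 and 236 had an FDR of 0.00544 in the authors' deposited table. The beta subunit gene of fatty acid synthase, fas1 (chromosome I, 3900472 to 3906584), had 16.7 and 0 at 0 h and 477, 270 and 0 at 24 h. Its partner fas2 (chromosome I, 2567044 to 2572384), for the alpha subunit, had 30.8 and 4.71 at 0 h and 421, 252 and 37.2 at 24 h. For fas1, 24 h library 3 held no signal, so the libraries overlapped there, while for fas2 each 24 h library with signal exceeded both 0 h values. The log2 differences were 5.19 and 4.18, with an FDR of 0.0108 and 0.0307 in the authors' deposited table.

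Other enzyme genes of the 25 with the lowest FDR were aco1 (aconitase of the citric acid cycle, from 1.54 to 86.2), acs1 (acetyl-CoA synthetase, 1.41 to 54.7), met10 (sulfite reductase, 2.69 to 79.9), leu3 (leucine synthesis, 2.47 to 60.5), ctt1 (catalase, 2.44 to 46.2) and uba1 (ubiquitin activation, 1.54 to 41.0), each as the authors' means. The sterol genes erg25, with means of 1.52 and 44.6, and erg6, whose region also covers uvi31, with 1.67 and 29.7, belonged to it too. So did etp1, a mitochondrial monooxygenase-ferredoxin fusion, the kinase gene cki1, the dehydrogenase gene SPOM_SPCC736.13, the phosphoketolase family gene SPOM_SPBC24C6.09C, the 14-3-3 gene rad24, the oxysterol-binding protein gene oss1, the transcription factor gene esc1 and the Bax inhibitor family gene bxi1. At 0 h these 8 stood between 0.898 and 2.18 normalised reads and at 24 h between 18.2 and 46.5.

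The region of isp6, a vacuolar serine protease used in autophagy (chromosome I, 2545143 to 2546786), had 20.5 and 0 normalised reads at 0 h and 319, 267 and 193 at 24 h. All 24 h libraries with signal were above both 0 h libraries, and the 24 h level per kb, 95.2, was the highest of all 497. The FDR was 0.00846 in the authors' deposited table. For SPOM_SPBC1652.02, an amino acid transporter gene, library 1 was not the highest: it had 20.5 and 0 at 0 h and 177, 250 and 187 at 24 h, with an FDR of 0.0133 in the authors' deposited table. The transporter gene is not in the list of nitrogen starvation genes. Of the 28 matched genes of that list 8 (28.6%) lay under gaining regions, beside 565 of 5113 genes (11.1%) in all, and 1, isp6, lay under a region with an FDR under 0.05, beside 60 in all. The others were amt2 (ammonium uptake), fnx1 (vacuolar amino acid transport), gdh1 (glutamate dehydrogenase), inv1 (invertase), vtc4 (polyphosphate synthesis), tor1 and tor2, with log2 differences of 1.15 to 3.48. Only 4 of the 8 had 2 or more 24 h libraries above every 0 h library. At fnx1, tor1 and tor2, 24 h library 1 alone held signal. A further 11 of the 28 lay under regions gaining from the 0 h minimum, beside 27.8% of all genes.

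The kinase genes tor1 and tor2 were cases of a single library. Their products are the catalytic subunits of TORC2 and TORC1, which sense nutrients. The tor2 region (chromosome II, 915318 to 921973) had 51.9 and 88.5 normalised reads at 0 h and 342, 0 and 0 at 24 h, and tor1 had 0 and 22.6 at 0 h and 291, 0 and 0 at 24 h. At both genes 24 h library 1 was above the 0 h libraries and the other 24 h libraries held no signal. Without that library the log2 differences were -5.24 and -2.79.

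Of 141 ribosomal protein genes 10 (7.09%) lay under gaining regions, beside 11.1% of all genes. Of the 141, 4 lay under a gaining region with an FDR under 0.05, beside 60 of all 5113 genes. They were rps3 (shared with ptf2, from 1.41 to 71.3), rpl101 (shared with rrp5, 1.41 to 61.4), rpl1002 (0.958 to 19.0) and rps101 (1.90 to 25.0), each as the authors' means. The other 6, rpl2301, rpl302, rpl802, rps002, rps1701 and rps601, had log2 differences of 1.07 to 2.60. The rps601 region spans 182945 to 187418 on chromosome I, well beyond the 720 coding bases of rps601. Another 76 ribosomal protein genes lay under regions gaining from the minimum, beside 1420 of all genes (27.8%). Of 23 translation factor genes 5 (21.7%) were under gaining regions, beside 11.1% of all genes. For eft201, translation elongation factor 2, the recovered values were 0 and 30.1 at 0 h and 305, 208 and 210 at 24 h, and the FDR was 0.0220 in the authors' deposited table. The 24 h libraries with signal were close to each other and all above the 0 h ones. The ribosome assembly factor gene tif6 had an FDR of 0.0486 in the authors' deposited table, and tif301, tif307 and tif471, for initiation factors, had one of 0.152 or more. eft201, rpl1002, rpl302, the cell surface genes gsf2 and pfl5, the polyubiquitin gene ubi4 and Tf2-7 were among 9 genes with repeated coding sequence. At least 50% of the coding 31-mers of each were found more than once in the genome, so reads of their copies or repeats may have been split.

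**Figure D5:**
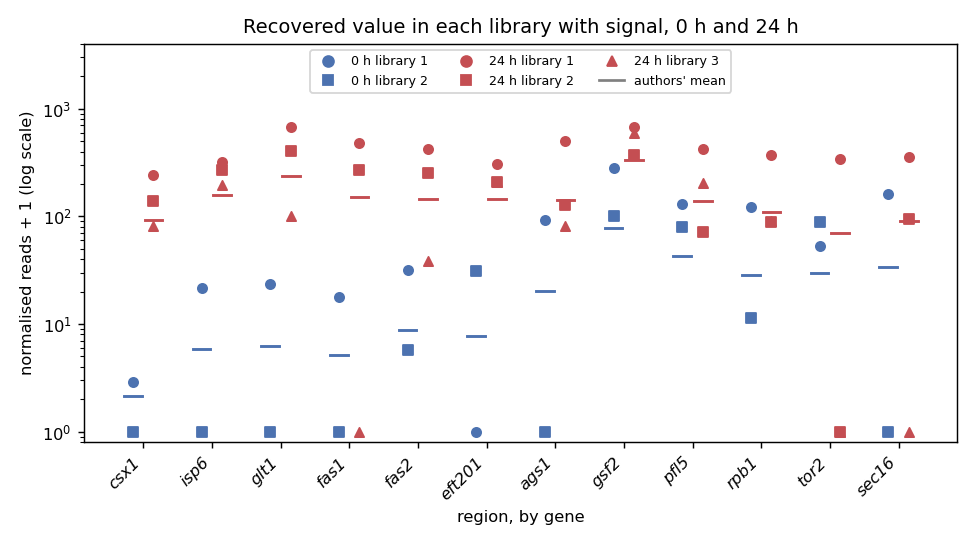
Recovered value of each library with signal at 0 h (blue) and 24 h (red), as normalised reads + 1 on a log scale (y axis), for 12 gaining regions named by gene (x axis; the glt1 region also covers its neighbour); lines are the authors' group means over the 5 assumed libraries. Points at 1 held no signal, as for 24 h libraries 2 and 3 at tor2, whereas at isp6 the 24 h libraries lie between 193 and 319.

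None of the 10 regions with the highest 0 h level had an FDR under 0.05. The highest was that of gsf2, a flocculin, a cell wall glycoprotein by which cells adhere to each other (chromosome III, 959380 to 963867). It had 279 and 99.9 normalised reads at 0 h and 680, 374 and 592 at 24 h. Every 24 h library with signal was above both 0 h libraries, while the other assumed 24 h libraries stood at the minimum. The means differed by 2.11 on the log2 scale, with an FDR of 0.434 in the authors' deposited table. The region contains a tandem repeat. A run of 36 bases occurred 7 times in the coding sequence at a spacing of 132 bases, between coding bases 2513 and 3340, and all 7 copies lay inside the region. The first unit is shown because reads inside it may fit several units; it lies on the minus strand at chrIII:961329-961460 (RefSeq, ASM294v3), with the repeated run in capitals.
gsf2 repeat: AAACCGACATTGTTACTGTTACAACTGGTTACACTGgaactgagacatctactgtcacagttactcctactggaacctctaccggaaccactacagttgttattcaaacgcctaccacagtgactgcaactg

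After gsf2 came bbc1 (an SH3 domain protein, from 67.3 to 146), shd1 (a Sla1 family endocytosis protein, 46.3 to 154), pfl5 (a cell surface glycoprotein, 42.0 to 139), nuc1, sec16, aro1 (aromatic amino acid synthesis), def1 (degradation of RNA polymerase II), eis1 with SPOM_SPCC63.13, and tor2, each as the authors' means. Per kb, gsf2 and bbc1 stood at 17.1 and 17.2 normalised reads at 0 h, and the highest per kb was wwm2 at 28.5. Without 24 h library 1, the regions of bbc1, gsf2, pfl5, shd1 and eis1 were still higher at 24 h, by 0.51 to 1.66, and those of nuc1, sec16, aro1, def1 and tor2 were lower.

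Of 30 genes of the cell surface and wall list 8 (26.7%) lay under gaining regions, beside 11.1% of all genes, and none had an FDR under 0.05. Besides gsf2 and pfl5 they were pfl3 and pfl4 (glycoproteins of the same kind), ags1 (alpha-glucan synthase), bgs3 (beta-glucan synthase), eng2 (a glucanase) and gas4 (a glucanosyltransferase). The gas4 region spans 4204056 to 4207596 on chromosome II, well beyond the 1371 coding bases of gas4. At ags1 (chromosome III, 1373860 to 1381471) the values were 91.6 and 0 normalised reads at 0 h and 501, 126 and 81.1 at 24 h. One 0 h value exceeded the lowest 24 h value, so the groups overlapped. Several genes of the list were long, with 7233 coding bases for ags1, 5481 for bgs3 and 4692 for gsf2. Of all genes above 4000 bp, 34.2% lay under gaining regions. The part of coding length in the share of the list was not tested.

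The shares of silencing genes are set beside the 11.1% of all genes. Of 31 genes of the heterochromatin machinery 1 (3.23%), clr3, a histone deacetylase of the SHREC silencing complex, lay under a gaining region, from 2.82 to 29.2 normalised reads with an FDR of 0.0774 in the authors' deposited table. A further 10 lay under regions gaining from the 0 h minimum, beside 27.8% of all genes, and 13 under no region. Of 19 RNA elimination genes 4 (21.1%) lay under gaining regions: mmi1 (removal of meiotic transcripts, 12.4 to 35.4), rrp6 (nuclear exosome), ccr4 and caf1 (removal of poly(A) tails), and none passed. Of 15 meiotic island genes 2 (13.3%), crs1 and mug8, did, and neither passed. At crs1, mug8, rrp6 and ccr4, 24 h library 1 alone held signal. The crs1 region spans 3449648 to 3453174 on chromosome II, well beyond the 903 coding bases of crs1. The rrp6 region spans 611656 to 616572 on chromosome I, also well beyond the 2334 coding bases of rrp6.

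The other lists had shares of 5.88% to 20.0%, beside 11.1% of all genes. Of 17 glycolysis genes 15 lay under regions gaining from the 0 h minimum, beside 27.8% of all genes. Under gaining regions lay 1 (5.88%), hxk1 for hexokinase, with means of 5.29 and 22.4. Of 20 chaperone genes 2 (10.0%), cdc48 and ssc1, did, the latter with an FDR just above 0.05 in the authors' deposited table. Of 30 transporter genes 3 (10.0%), ght6, pmd1 and vma1, did. Of 20 cell cycle and cytoskeleton genes 4 (20.0%) did, namely atb2 and nda3 (tubulins), myo1 (myosin I) and top2 (topoisomerase II), and of 11 histone genes 1 (9.09%), pht1 (H2A.Z). None of these passed. In the list of 6 genes drawn up as phosphate-regulated or lncRNA-silenced, 1 (16.7%), byr3, lay under a gaining region. Its annotated product, a translational activator with a zinc finger, names neither phosphate nor lncRNA silencing. The byr3 region had means of 1.15 and 9.93 and an FDR of 0.0346 in the authors' deposited table. The lists are small, and no share was tested.

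Some complexes were chosen after their genes had been seen under the regions, so their counts support nothing. The largest subunits of all 3 nuclear RNA polymerases lay under gaining regions. For rpb1, of polymerase II, the values were 122 and 10.4 normalised reads at 0 h and 370, 87.0 and 89.3 at 24 h, with overlap between the groups. For nuc1, of polymerase I, they were 30.8 and 149 at 0 h and 273, 77.0 and 45.4 at 24 h, also with overlap. The means of rpc1, of polymerase III, were 18.8 and 51.9, and its libraries overlapped too. Of the COPI vesicle coat 4 of 7 genes did (cop1, sec21, sec26 and sec27), and of the COPII coat 3 of 7 (sec16, sec231 and sec31), with cop1 alone having an FDR under 0.05, at means of 0.898 and 26.7 in the authors' deposited table. At sec21, sec27 and sec231, 24 h library 1 alone held signal. The sec31 region also overlaps mde3.

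The 10 largest log2 differences fell on csx1, aco1, rps3 with ptf2, glt1, rpl101 with rrp5, SPOM_SPBC359.01, myo1 with coq6, acs1, met11 with msc1, and fas1, from 6.32 down to 5.19. Of these, the regions of SPOM_SPBC359.01, myo1 and met11 had no 24 h signal outside library 1, which held 195, 252 and 267 normalised reads there. Each was listed with a p of 1 in the authors' deposited table. The other 7 had signal in at least 2 libraries at 24 h.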

How the data were processed

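Chromatin of cross-linked fission yeast cells, equal numbers of cells at each time, was immunoprecipitated with an H3K9me2 antibody and sequenced, per the labels' protocols. The submitters' processing notes name Bowtie2 2.2.7, MACS2 2.1, DiffBind 1.16.3, DESeq2 and build ASM294v2, without role or order. The sources used here do not say whether input reads were subtracted. The authors deposited log2 mean normalised reads per group and region, and a p-value and FDR, per the file headers; the log2 fold was turned so that positive means higher at 24 h. Being means over a group, these values are printed without SD or n. Per-library count tests could not be run on means.

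Each mean was split into whole reads per library above its minimum, assuming 5 libraries per group, within a relative tolerance of 3e-14 and up to 600 normalised reads. At 0 h 2177 and at 24 h 2175 regions were resolved, and of 1026 and 2029 shifted values none were. If input was subtracted, these are reads left after subtraction. The depth per library is unknown; counting intervals (95%) cover counting error only. In R 4.3.3, limma 3.58.1 with its trend option was fitted to log2(value + 1) of 2174 regions with the Benjamini-Hochberg adjustment. Its check on simulated data drew signal in all 5 libraries of each group, so it did not cover libraries without signal. Other steps used Python 3.11.15, pandas 2.3.3 and numpy 2.4.6.

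Genes came from the RefSeq annotation of ASM294v3, whose chromosome lengths equal the last region ends on all 3 chromosomes; an overlap of 1 bp counted. Region positions count from 1 and were taken from the deposited table. Named were the 25 regions of lowest FDR, the 10 highest in level at each time or in difference, those next to the limits, and the listed genes under gaining regions, with the ribosomal protein list in full. The complexes, and bet4, wwm2, Tf2-7, ubi4 and the region on the separate contig, were added after their values were seen. Regions and lists were chosen with earlier results of these data known.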

Additional observations from a re-analysis of the deposited data

Results flagged for a closer look

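In 25 named regions the recovered values of the 5 assumed libraries of each group were checked for a single library far from the others, by the gap to its nearest neighbour divided by the range of the group, with 0.71 as the limit for 5 values. For 5 values drawn from a single normal distribution, chance alone passes that limit in about 1 of 20 groups. That rate does not hold here, because the libraries without signal were 0 in every region. A group with signal in 1 library gives a ratio of 1 whatever its level, so the passes are descriptions only. At 0 h 19 regions passed. In 15 of them 1 library held all of the signal, which gives a ratio of 1: csx1, rps3 with ptf2, aco1, etp1, rpl101 with rrp5, erg25, cki1, acs1, glt1, cop1, isp6, fas1, eft201, ags1 and sec16. The other 4 were fas2 at 0.847, nuc1 at 0.793, def1 at 0.776 and shd1 at 0.758. At 24 h 8 passed, each through library 1: tor2 at 1, where the other libraries held no signal, cop1 at 0.849, rpl101 with rrp5 at 0.835, def1 at 0.789, ags1 at 0.749, aro1 at 0.744, sec16 at 0.736 and nuc1 at 0.718. The csx1, isp6, fas1, fas2, glt1 and eft201 regions did not pass at 24 h.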

How the results depend on the processing

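The number of gaining regions, 497, was 249 with a log2 difference of 2 or more required, and 134 with both groups scaled to the same median of tested regions, which lowers every log2 difference by 1.72. After that scaling 315 of the 497 were still higher at 24 h. Averaging only the libraries with recovered signal, an alternative chosen after seeing the data, gave 341 regions. The other limits on 0 h level, width, difference and total gave 394 to 646. Of the 53 regions with an FDR under 0.05, 15 had one under 0.01 and 21 reached 3 counts per library at 0 h. On recovered values with a pseudocount of 1, 492 regions were higher by 1 or more. Leaving out 1 library at a time gave 155 to 494, the lowest without 24 h library 1, and a pseudocount of 5 gave 395. Counts of genes (514 to 731) and of covered gene starts (10) stayed within 1.5 times. No paired analysis was possible because the table holds group means and the recovered libraries carry no replicate number. DESeq2 size factors were not run for the same reason.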
